A study of Mus musculus with 18 samples.

Results

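The later phase of kidney injury was described in kidneys labelled PTKO, by comparing the libraries taken after aristolochic acid I (AAI) had been stopped with those taken at the end of AAI treatment. The 3 libraries titled PTKO AA 6wk were set against the 3 titled PTKO AA 3wk, which are 6 of the 18 libraries of the study, over every gene measured. All mice were C57Bl/6, and total RNA came from the PBS-perfused kidney cortex, kept in RNAlater. The study has mice with floxed Klf6 alleles (Klf6fl/fl, called fl/fl here) and mice with loss of Klf6 in the proximal tubule (Klf6PTKO), each in 3 groups of 3 libraries. A group received the DMSO vehicle, 3 weeks of AAI, or 3 weeks of AAI and then another 3 weeks of remodeling without it, which makes the 6-week group. The labels give no week for the DMSO group, so the same 3 DMSO libraries of a genotype stand beside both AAI times. They name no driver for the knockout, and whether a group's libraries stem from different mice is not said, so the p-values below measure the spread between libraries, which may be technical.

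AAI is a plant nephrotoxin that binds DNA in proximal tubule cells, which take back much of what the glomerulus filters and burn fatty acids for energy. Injured tubule cells are known to switch off transport and metabolic genes, to activate the p53 response to DNA damage and to divide in place of lost neighbours, while immune cells and matrix-forming fibroblasts gather around them. In a kidney that repairs itself these programs recede and the transport and metabolic genes return, and cells that do not complete this course keep injury genes switched on. Klf6, of the Krüppel-like transcription factors, is known as an early response gene of injured epithelium.

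Levels are given in CPM, the reads of a gene scaled to a common library size, as the authors deposited them. The 3-week libraries held between 24685033 and 27213219 reads, the 6-week libraries between 19011323 and 19552233 and the PTKO DMSO libraries between 18561515 and 20787996. In whole cortex the level of Klf6 does not check the genotype label, since other cells also express the gene. Klf6 was 310, 280 and 229 CPM at 3 weeks and 228, 254 and 370 CPM at 6 weeks, groups that overlap (log2 difference 0.04, SE 0.18, adjusted p 0.920), against 40.2, 43.2 and 56.7 CPM under DMSO. Replicate 3 of the 6-week group stood apart: over all genes tested it correlated with its fellow libraries at r = 0.977 and 0.970, while these correlated with each other at 0.991. The defining genes of cortex were present in all 6 libraries, with the sodium phosphate cotransporter gene Slc34a1 of the proximal tubule between 2469 and 4044 CPM. The fat tissue gene Adipoq was 35.2 CPM in replicate 2 of the 6-week group and at most 0.0735 CPM in the other 5 libraries, while Fabp4, which other cells also express, was 127 CPM there and between 28.4 and 38.9 CPM in the others.

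Of 24062 genes in the table, 14604 reached 1 CPM in at least 3 of the 18 libraries and were tested with limma on log2(CPM + 1). A gene is called where its Benjamini-Hochberg adjusted p is under 0.05, and differences are log2(CPM + 1) at 6 weeks minus 3 weeks, with the standard error (SE). From 3 to 6 weeks 426 genes rose (2.92% of those tested) and 1207 fell (8.26%). The median called increase was 0.52 and the median called decrease -0.67. Changes of at least 1 on the log2 scale were called for 60 genes upward (0.411%) and 269 downward (1.84%). The 3 libraries of one time did not overlap with those of the other in 4296 genes (29.4%), called or not. The balance of directions depends on scaling: 26.1% of the called genes were higher on the deposited CPM, 39.6% after median-of-ratios scaling, 45.5% with edgeR and 46.2% after quantile normalization, and the median over all genes was -0.06 on the deposited scale against 0.02 after quantile normalization. When each of the 6 libraries was left out in turn, 88 of the higher and 317 of the lower genes were called all 6 times.

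**Figure D1:**
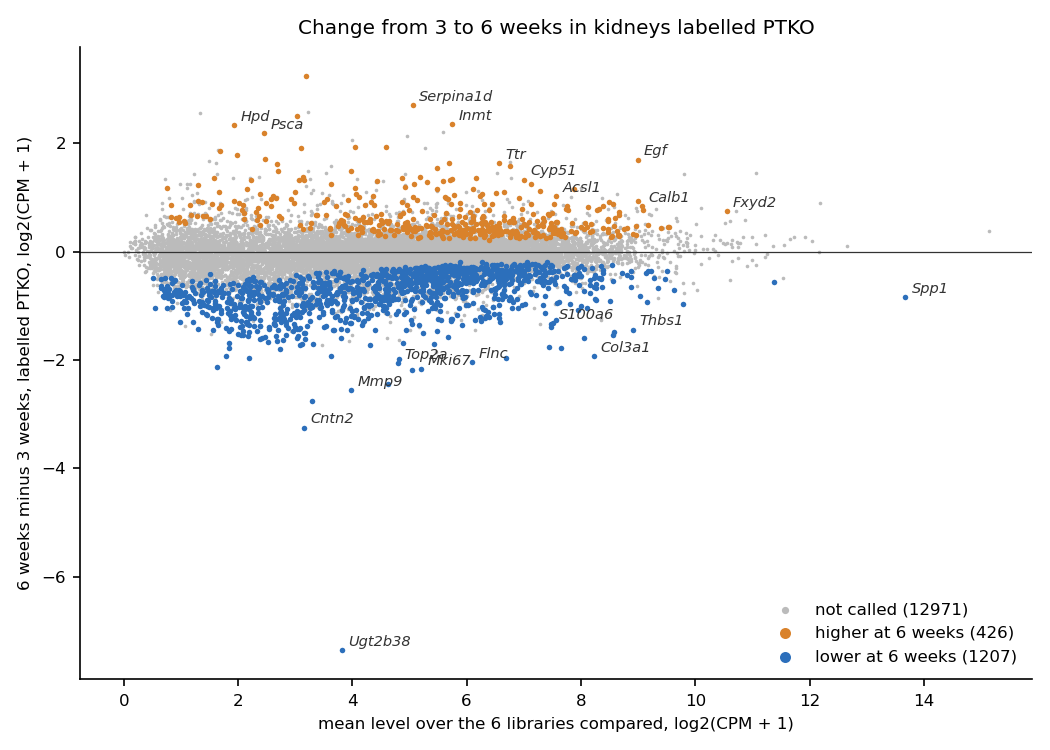
Difference in log2(CPM + 1) between 6 and 3 weeks (vertical axis) against the mean log2(CPM + 1) over the 6 libraries (horizontal axis) for the 14604 genes tested in kidneys labelled PTKO; orange points are the 426 genes called higher, blue points the 1207 called lower and grey points the rest. The called decreases lie mainly between 0 and -3 at every level of expression, with Ugt2b38 alone at -7.36.

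The DMSO libraries divide these genes by what AAI had done at 3 weeks. The comparisons of each AAI time with DMSO share libraries with the comparison of 6 with 3 weeks, so the classes are a description. At 3 weeks 2032 genes were called lower than DMSO (13.9%) and 8354 higher (57.2%), 71.1% in all. At 6 weeks the counts were 1659 (11.4%) and 7842 (53.7%), 65.1% in all. On the deposited CPM the median over all genes tested was itself above DMSO, by 0.42 at 3 weeks and 0.36 at 6 weeks. The factors of median-of-ratios scaling, by which CPM are divided, were 0.798 to 0.815 with DMSO, 1.08 to 1.14 at 3 weeks and 1.04 to 1.09 at 6 weeks. Distances from DMSO in this report are on the deposited CPM and would shift with such scaling. It would raise the DMSO libraries against those of both AAI times. Levels above DMSO would then come closer to it, and levels near or under DMSO would fall further below. The classes below, which rest on calls against DMSO, would shift too. Of the 426 genes that rose, 270 had been lowered by AAI and are called regained here, 37 had already been raised, 94 had not been called at 3 weeks but stood above DMSO at 6 weeks, and 25 were in none of these classes. Regained genes were 13.3% of all genes lowered at 3 weeks. Their median distance from DMSO was -0.74 at 3 weeks and -0.19 at 6 weeks, and 108 of the 270 were still called below DMSO. Of the 1207 genes that fell, 1122 had been raised by AAI and are called receded, which is 13.4% of the genes raised at 3 weeks. Among these, 845 were still called above DMSO at 6 weeks, with a median of 1.84 above DMSO at 3 weeks and 1.01 at 6 weeks, and the remaining 277 were not called above it, 6 of them being called below. Another 10 genes had been lowered at 3 weeks and fell further, and 55 fell from an uncalled level to below DMSO.

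The 6 regained genes with the largest differences under the naming rule were Nccrp1, Serpina1d, Tmem207, Inmt, Hpd and Ppp1r1b, of which Inmt and Hpd were called in each of the 6 fits that leave out a library. Inmt (chr6:55170626-55175043 in GRCm38, the mm10 build), which encodes indolethylamine N-methyltransferase, was 33.5, 27.2 and 12.7 CPM at 3 weeks and 223, 110 and 70.8 CPM at 6 weeks. Every 6-week library was above every 3-week library and below the 3 DMSO libraries, at 925, 1256 and 831 CPM, and the difference was 2.36 (SE 0.37, adjusted p 0.00213). Ttr, for the thyroid hormone carrier transthyretin, went from 36.4, 70.9 and 57.5 CPM to 167, 179 and 154 CPM (1.63, SE 0.27, adjusted p 0.00285). Its 6-week libraries lay among the DMSO libraries, at 279, 197 and 136 CPM. Hpd, which encodes 4-hydroxyphenylpyruvate dioxygenase of tyrosine breakdown, was near 0 at 3 weeks (0.396, 0.992 and 0.770 CPM) and 7.22, 3.47 and 16.0 CPM at 6 weeks (2.33, SE 0.44, adjusted p 0.00562). All 3 values stayed far under those with DMSO, 51.7, 69.7 and 34.6 CPM. Azgp1, for the secreted zinc-alpha-2-glycoprotein, rose from 2.18, 3.01 and 1.30 CPM to 13.2, 5.42 and 10.2 CPM (1.71, SE 0.32, adjusted p 0.00557). Ttr and Azgp1 were also called in all 6 of these fits. Serpina1d, a mouse alpha-1-antitrypsin gene, rose by 2.70 (SE 0.59, adjusted p 0.0108), from 8.19, 31.4 and 6.44 CPM to 109, 91.9 and 58.3 CPM. Its groups did not overlap, but it lost its call without replicate 1 (adjusted p 0.0524) or replicate 3 (0.0546) of the 3-week group, and near-identical Serpina1 copies make the assignment of its reads uncertain. In the remaining 3 genes replicate 3 of the 6-week group was the highest library. Nccrp1 was 3.64, 3.78 and 0.162 CPM at 3 weeks and 21.4, 8.21 and 105 CPM at 6 weeks (3.24, SE 0.90, adjusted p 0.0323), and 4 of 6 leave-one-out fits did not call it, those without replicates 1 (0.0633) or 3 (0.131) of the 3-week group and replicates 1 (0.0695) or 3 (0.110) of the 6-week group. Tmem207, for a membrane protein, was 3.05, 5 and 0.689 CPM and then 17.9, 8.73 and 39.5 CPM (2.5, SE 0.59, adjusted p 0.0155; 0.0751 without replicate 3 of the 3-week and 0.0555 without replicate 3 of the 6-week group). Ppp1r1b, a protein phosphatase inhibitor gene, was 13.8, 16.8 and 6.24 CPM and then 40.2, 27.5 and 88.0 CPM (1.93, SE 0.48, adjusted p 0.0209). It was not called without replicates 1 (0.0509) or 3 (0.0918) of the 3-week group or replicate 3 of the 6-week group (0.0717), and none of the 3 genes overlapped between the times.

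Genes of energy metabolism moved upward in small steps. Of 29 nuclear genes for oxidative phosphorylation subunits 9 rose and none fell, with a median difference of 0.27 against -0.06 over all genes, and all 29 estimates were at or above 0. Cox5b, a cytochrome c oxidase subunit gene, was 90.0, 98.3 and 89.6 CPM at 3 weeks and 132, 121 and 158 CPM at 6 weeks (0.55, SE 0.10, adjusted p 0.00535). On the deposited CPM the 6-week libraries were higher than the DMSO libraries too, at 97.6, 113 and 105 CPM. On this scale the median over all genes tested also stood 0.36 above DMSO at 6 weeks. Atp5c1, the gamma subunit of ATP synthase, rose from 341, 413 and 366 CPM to 511, 459 and 520 CPM (0.41, SE 0.09, adjusted p 0.0135), without overlap, and was not called without replicate 1 of the 3-week group (0.0714). In the tricarboxylic acid cycle list 4 of 14 genes rose, median 0.25, among them the isocitrate dehydrogenase gene Idh3a (0.42, SE 0.10, adjusted p 0.0180), which missed the threshold without replicate 1 (0.0804) or 3 (0.0628) of the 3-week group or replicate 3 of the 6-week group (0.0577). The calls of these lists are near the threshold: without replicates 1 or 3 of the 3-week group 1 and 3 oxidative phosphorylation genes were called, and without replicates 1 or 3 of the 6-week group 3 and 4. The same 4 fits called 0, 2, 2 and 2 of the cycle genes.

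Fatty acid oxidation showed the most stable of the metabolic calls. In this list 4 of 24 genes rose and none fell (median 0.31), and 3 of the 4 were called whichever library was left out, while 8 were called without replicate 3 of the 6-week group. Acsl1, which activates long-chain fatty acids, was 123, 141 and 133 CPM at 3 weeks and 178, 269 and 408 CPM at 6 weeks (1.03, SE 0.21, adjusted p 0.00817). The 6-week values were spread widely, all above the 3-week libraries, around the DMSO values of 311, 273 and 322 CPM. Eci1, an enoyl-CoA isomerase gene, rose from 45.4, 60.9 and 62.6 CPM to 82.9, 90.7 and 78.1 CPM (0.58, SE 0.11, adjusted p 0.00571). Crat, for carnitine acetyltransferase, rose from 148, 167 and 155 CPM to 226, 230 and 189 CPM (0.45, SE 0.09, adjusted p 0.00760). Neither gene overlapped between the times, and for both the 6-week values stood between the 3-week and the DMSO values, which were 95, 94.1 and 99.8 CPM for Eci1 and 254, 257 and 250 CPM for Crat.

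Amino acid breakdown gave 7 called of 28 genes for branched-chain amino acids (median 0.29) and 5 of 24 for other amino acids (median 0.40), each upward. Acadsb, a branched-chain acyl-CoA dehydrogenase gene, rose from 106, 120 and 106 CPM to 159, 143 and 163 CPM (0.49, SE 0.12, adjusted p 0.0220). On the deposited CPM the 6-week values were near the DMSO values of 146, 151 and 161 CPM. Median-of-ratios scaling would raise the DMSO values against them. Without replicate 1 or 3 of the 3-week group or replicate 1 of the 6-week group 0 branched-chain genes were called, and without replicates 2 or 3 of the 6-week group 3 were. Acadsb was not called without replicates 1 (0.0834) or 3 (0.0757) of the 3-week group or replicates 1 (0.0692) or 3 (0.0577) of the 6-week group. Dmgdh, for dimethylglycine dehydrogenase of choline breakdown, rose from 24.2, 40.6 and 33.5 CPM to 106, 78.0 and 65.3 CPM (1.32, SE 0.30, adjusted p 0.0131). These groups did not overlap, and the call was lost without replicate 1 of the 3-week (0.0678) or of the 6-week group (0.0580). The other amino acid genes called were 3 without replicate 1 and 2 without replicate 3 of the 3-week group, and 1 without replicate 1 of the 6-week group. At 6 weeks 19 of the 28 branched-chain genes and 18 of the 24 others were still called below DMSO, against 11.4% of all genes tested.

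Among genes of sterol and xenobiotic handling, 4 of 17 cytochrome P450 genes rose (median 0.42) and none fell. Cyp51, the sterol demethylase of cholesterol synthesis, was 77.8, 103 and 64.6 CPM at 3 weeks and 232, 247 and 145 CPM at 6 weeks (1.33, SE 0.26, adjusted p 0.00649). On the deposited CPM its 6-week libraries reached the DMSO values of 241, 269 and 204 CPM in all but replicate 3, without overlap with the 3-week group. Median-of-ratios scaling would raise the DMSO values against them. Of the P450 genes 1 was called without replicate 1 of the 3-week group, 2 without its replicate 3 or without replicates 1 or 2 of the 6-week group. Of 19 further cholesterol synthesis genes 2 rose, and 0 without replicates 1 or 3 of the 3-week group or replicate 1 of the 6-week group. Of 19 genes of endoplasmic reticulum and related stress responses 1 rose and 1 fell (median 0.05), against 2.92% and 8.26% of all genes tested. The gene that rose was Herpud1, which encodes a membrane protein of the pathway that degrades misfolded endoplasmic reticulum proteins. It went from 285, 297 and 256 CPM to 591, 524 and 433 CPM (0.88, SE 0.15, adjusted p 0.00304). On the deposited CPM the 6-week values lay near or under the DMSO values of 595, 526 and 576 CPM, which the same scaling would raise against them. Of 13 NRF2 target genes 3 rose and 1 fell, with 0 higher without replicate 1 of the 3-week group and 1 without its replicate 3 or replicate 2 of the 6-week group. Gstm1, a glutathione transferase gene with close paralogs, rose from 224, 292 and 271 CPM to 503, 547 and 436 CPM (0.92, SE 0.21, adjusted p 0.0122), and was not called without replicate 1 of the 3-week group (0.0618). Txnrd1, for thioredoxin reductase, fell from 255, 304 and 299 CPM to 199, 222 and 227 CPM (-0.40, SE 0.09, adjusted p 0.0127), which was lost without replicate 3 of the 3-week group (0.0541) or replicate 1 of the 6-week group (0.0577).

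The transport genes that define the proximal tubule were not called in either direction. None of 21 genes of its first segments (S1 and S2) and none of 15 genes of the straight segment (S3) passed the test, with medians of 0.22 and 0.80 on the log2 scale. Slc34a1 was 2469, 3188 and 3329 CPM at 3 weeks and 4044, 3775 and 2738 CPM at 6 weeks (0.22, 95% interval -0.29 to 0.74, adjusted p 0.586), overlapping ranges well under the 9536, 8572 and 8942 CPM with DMSO. Hnf4a, a nuclear receptor gene of tubule identity, also overlapped, with 592, 647 and 589 CPM against 769, 785 and 607 CPM (0.23, adjusted p 0.459). For S3 the 6-week libraries disagreed among themselves. Slc7a13, an amino acid transporter of S3, was 465 and 313 CPM in replicates 1 and 2 but 47.1 CPM in replicate 3, within the 3-week range of 34.2 to 114 CPM. Slc22a7, an organic anion transporter, was 173 and 169 CPM in those replicates and 8.69 CPM in replicate 3, under all 3-week libraries (19.8, 81.9 and 15.6 CPM). Without replicate 3 of the 6-week group 6 of the 15 S3 genes and 3 of the 21 S1 and S2 genes were called higher, with medians of 1.76 and 0.40. The summed level of the S3 list was 16348 and 13129 CPM in replicates 1 and 2 and 3041 CPM in replicate 3, against 3929 to 7638 CPM at 3 weeks and 38821 to 46558 CPM with DMSO.

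**Figure D2:**
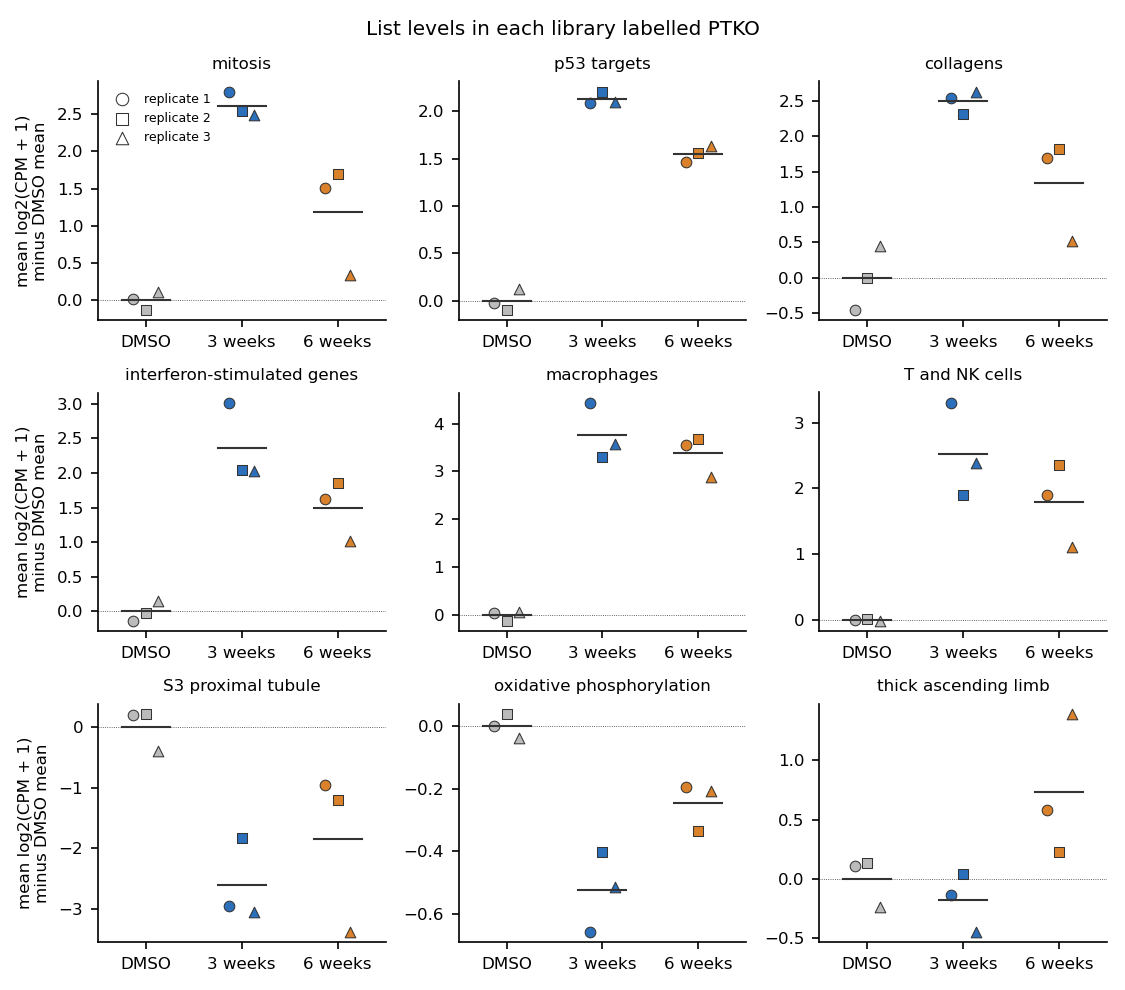
Mean log2(CPM + 1) of the members of 9 gene lists in each library labelled PTKO, minus the mean of the 3 DMSO libraries (vertical axes, differing in range), for DMSO in grey, 3 weeks in blue and 6 weeks in orange; marker shapes give the replicate and horizontal bars the group means. Replicate 3 of the 6-week group, drawn as a triangle, is the lowest 6-week library for mitosis, collagens, interferon-stimulated genes, macrophages, T and NK cells and S3, and the highest for the thick ascending limb.

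Of the distal nephron lists, the thick ascending limb had the most calls. In the thick ascending limb, the segment that dilutes the urine, 5 of 12 genes rose and none fell (median 0.88). Cldn10, a claudin gene, was 66.4, 85.6 and 55.7 CPM at 3 weeks and 131, 112 and 214 CPM at 6 weeks (1.09, SE 0.22, adjusted p 0.00750), without overlap and regained towards its DMSO values of 183, 179 and 208 CPM. Its fall by 3 weeks was not typical of the list, which had a median of 0.14 against DMSO, with 2 genes called lower and 2 higher. The segment that its reads came from was not tested. Egf, the epidermal growth factor gene made in this segment, rose from 246, 387 and 235 CPM to 1035, 708 and 1048 CPM (1.70, SE 0.46, adjusted p 0.0303). Its groups were clearly apart, yet 4 of the 6 leave-one-out fits did not call it, those without replicate 1 (0.104) or 3 (0.0982) of the 3-week group and without replicate 1 (0.0932) or 3 (0.0709) of the 6-week group. Kcnj1, the apical potassium channel of the limb, was not called lower than DMSO at 3 weeks on the deposited CPM. It stood at 250, 263 and 218 CPM at 3 weeks against 365, 328 and 613 CPM at 6 weeks (0.78, SE 0.20, adjusted p 0.0250). Its adjusted p was 0.0758 without replicate 3 of the 6-week group, and 0.0688 and 0.0891 without replicates 1 and 3 of the 3-week group. Replicate 3 of the 6-week group was the highest of all for this list, with a summed level of 16089.5 CPM against 9415 and 7049.5 CPM in its fellows and 4054 to 6458 CPM at 3 weeks. Slc12a1, the sodium-potassium-chloride cotransporter of the limb, was 3344 CPM there against 1197 and 798 CPM, and Slc14a2, a urea transporter of the inner medulla, 211 CPM against 50.7 and 23.6 CPM, with 17.9, 25.9 and 5.35 CPM at 3 weeks. Without this library 2 of the 12 thick ascending limb genes were called, with a median of 0.56, and without replicates 1 or 3 of the 3-week group 2 and 1 were. Without replicate 1 or 2 of the 6-week group 3 and 8 were called. Fewer cells of a type and less RNA per cell cannot be told apart in whole cortex, here and in every group below.

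Calb1 and Fxyd2, the latter listed with the inner medulla, rose whichever library was left out. Calb1, for the calcium buffer calbindin of the distal convoluted tubule, was 455, 411 and 347 CPM at 3 weeks, close to the DMSO libraries (425, 429 and 453 CPM), and 785, 672 and 715 CPM at 6 weeks (0.84, SE 0.14, adjusted p 0.00283). On the deposited CPM every 6-week library was above both other groups, and Calb1 therefore stands among the newly higher genes. That class depends on scaling, with 94 genes on the deposited CPM and 67 after median-of-ratios scaling. Such scaling would raise the DMSO libraries against the 3-week libraries, so that the 3-week level would no longer be close to DMSO. Fxyd2, the gamma subunit that tunes the sodium pump, was 1047, 1286 and 1151 CPM at 3 weeks and 1943, 1728 and 2170 CPM at 6 weeks (0.74, SE 0.13, adjusted p 0.00358), against 2153, 2196 and 2077 CPM with DMSO. The inner medulla gene Slc14a2 was only 2.40, 11.6 and 0.646 CPM with DMSO, so the change of Fxyd2 is not read as one of the inner medulla. Of 8 distal convoluted tubule genes 2 rose (1 in 4 of the leave-one-out fits), and none of 13 principal cell and 13 intercalated cell genes of the collecting duct was called. Without replicate 2 of the 6-week group 4 principal cell genes (median 0.66) and 2 intercalated cell genes (median 0.47) were called higher.

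**Figure D3:**
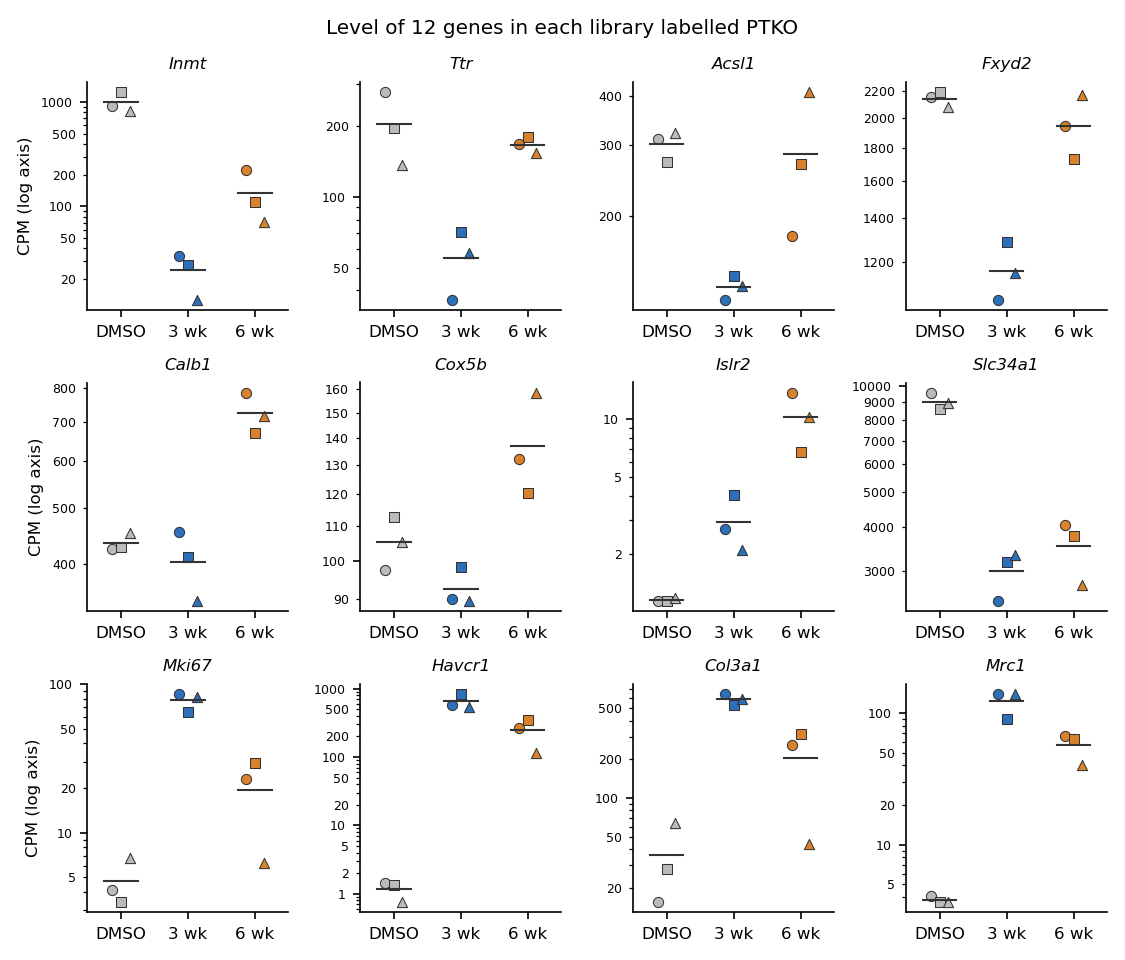
Level in CPM (vertical log axes, differing in range) of 12 genes in the DMSO (grey), 3-week (blue) and 6-week (orange) libraries labelled PTKO; circles, squares and triangles are replicates 1, 2 and 3 and bars the group means. On the deposited CPM, Inmt, Ttr, Acsl1 and Fxyd2 return towards DMSO, and Calb1 and Cox5b are above DMSO at 6 weeks. Islr2 rises further from a 3-week level already above DMSO, and Slc34a1 overlaps between the times. Mki67, Havcr1, Col3a1 and Mrc1 are lower in every 6-week than in every 3-week library.

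The newly higher and still rising genes were few. Apoc3, for the apolipoprotein that slows the clearance of triglyceride-rich particles, was 2.73, 5.03 and 2.92 CPM at 3 weeks and 9.81, 12.9 and 30.2 CPM at 6 weeks (1.91, SE 0.37, adjusted p 0.00649), above the DMSO libraries at 5.59, 7.02 and 3.07 CPM. Psca, a cell surface antigen gene of epithelia, was 2.22, 1.87 and 0.851 CPM and then 7.17, 6.15 and 26.5 CPM (95% interval of the difference 1.14 to 3.23, adjusted p 0.0123; 0.0568 without replicate 3 of the 3-week group). Both genes were higher in all 3 libraries at 6 weeks, with replicate 3 the highest. The naming rule also gave Serpina1a, Ppp1r1a, Upk3b and Upk1a as newly higher, and Upk1a belongs to the urothelium list described below. Among the 37 genes already raised at 3 weeks, Islr2, which encodes a leucine-rich repeat membrane protein, went from 2.69, 4.04 and 2.11 CPM to 13.6, 6.73 and 10.2 CPM (1.49, SE 0.24, adjusted p 0.00283) from DMSO values of 1.15, 1.15 and 1.19 CPM. The steps from group to group were larger than the spread within each. Krt19, a keratin of simple epithelia and one of 2 members of the tubular injury list that rose, went from 30.6, 18.7 and 17.3 CPM to 45.4, 57.8 and 70.6 CPM (1.37, SE 0.38, adjusted p 0.0315), and 5 of the 6 leave-one-out fits missed the threshold, with adjusted p of up to 0.110. Stra6, for the cell surface receptor of retinol-binding protein, went from 25, 22.1 and 12.5 CPM to 45.3, 39.2 and 51.3 CPM (1.20, SE 0.36, adjusted p 0.0439), and no fit that left out a library called it (0.0552 to 0.174). For neither gene did the times overlap.

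Cell division genes fell nearly as a block. Of 26 mitosis genes 25 fell and none rose, with a median of -1.39, and of 24 DNA replication genes 18 fell and none rose, with a median of -0.71. Mki67 (chr7:135689784-135716361), whose protein coats chromosomes in cycling cells, was 86.3, 64.8 and 82.6 CPM at 3 weeks and 23.0, 29.5 and 6.24 CPM at 6 weeks (-2.17, SE 0.44, adjusted p 0.00750). Top2a, the topoisomerase that untangles replicated chromosomes, was 66.8, 52.1 and 50.9 CPM and then 17.4, 23.3 and 4.71 CPM (-2.07, SE 0.41, adjusted p 0.00668). In both genes the groups were far apart, and replicate 3 at 6 weeks stood near the DMSO libraries, which were 4.10, 3.42 and 6.79 CPM for Mki67 and 2.65, 1.92 and 3.83 CPM for Top2a. Rrm1, the large subunit of ribonucleotide reductase, fell from 56.5, 52.1 and 53.9 CPM to 31.7, 31.1 and 32.0 CPM (-0.76, SE 0.11, adjusted p 0.00163), with little spread in either group. Pole, the catalytic subunit of a replicative DNA polymerase, fell from 12.3, 10.3 and 12.2 CPM to 3.89, 4.79 and 3.38 CPM (-1.33, SE 0.20, adjusted p 0.00163). At 6 weeks 24 of the 26 mitosis genes were still called above DMSO, against 53.7% of all genes tested. In all 6 leave-one-out fits 8 mitosis and 9 replication genes were called; without replicate 3 of the 6-week group 14 and 12 were, with medians of -1.02 and -0.57, and without replicate 1 of the 3-week group 8 and 9.

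Promoters of the mitosis genes are shown because so many of these genes moved together. The windows are the 120 bases before the RefSeq start of transcription (GRCm38.p6), written 5′ to 3′ on the strand of the gene, and capitals mark matches on either strand to the CCAAT box (CCAAT) or to TTTGAA, the letters of the cell cycle homology region. Ccnb2 (cyclin B2) and Cdc20 (an activator of the anaphase-promoting complex) were added for their sequences after their values had been seen.
Mki67, chr7:135716380-135716499, minus strand: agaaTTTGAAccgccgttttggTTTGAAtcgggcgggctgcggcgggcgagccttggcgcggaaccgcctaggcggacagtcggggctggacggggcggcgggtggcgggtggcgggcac
Top2a, chr11:99024190-99024309, minus strand: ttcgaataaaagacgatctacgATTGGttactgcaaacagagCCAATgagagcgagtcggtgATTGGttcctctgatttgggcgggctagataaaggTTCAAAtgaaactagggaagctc
Ccnb2, chr9:70421555-70421674, minus strand: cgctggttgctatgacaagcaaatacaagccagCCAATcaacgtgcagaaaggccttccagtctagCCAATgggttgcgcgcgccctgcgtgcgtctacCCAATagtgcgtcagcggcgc
Cdc20, chr4:118437344-118437463, minus strand: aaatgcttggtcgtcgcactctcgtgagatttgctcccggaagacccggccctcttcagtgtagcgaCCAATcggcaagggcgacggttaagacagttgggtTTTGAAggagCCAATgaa
Over the 250 bases before the start, CCAAT was found in 16 of the 21 mitosis genes with a promoter in the RefSeq table (76.2%) and in 35.7% of the 10960 tested genes with one. At least 2 matches were in 11 of the 21 (52.4%) against 12.8%. TTTGAA was found in 8 of the 21 (38.1%) against 10.7%. The Mki67 window holds TTTGAA but no CCAAT, and the Ccnb2 window holds 3 CCAAT boxes. A match is a description of the letters and was not tested as a binding site. Ccnb2 was 11.8, 10.8 and 8.95 CPM at 3 weeks and 4.62, 5.63 and 1.43 CPM at 6 weeks (-1.35, SE 0.35, adjusted p 0.0239). Cdc20 was 10.5, 10.3 and 7.82 CPM and then 6.28, 4.37 and 1.38 CPM (-1.21, SE 0.33, adjusted p 0.0299). Neither overlapped between the times, and both lost their call in some leave-one-out fits, Ccnb2 in 3 of 6 (0.0517 to 0.0872) and Cdc20 in 4 of 6 (0.0547 to 0.102).

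The p53 response receded in step in the 3 libraries of each time. Of 24 p53 target genes 15 fell and none rose, with a median of -0.52. At 6 weeks 21 were still called above DMSO, against 53.7% of all genes tested. Mdm2, the ubiquitin ligase that restrains p53, was 144, 163 and 155 CPM at 3 weeks and 79.8, 84.3 and 78.1 CPM at 6 weeks (-0.92, SE 0.13, adjusted p 0.00136), against 41.1, 41.4 and 45.1 CPM with DMSO. Eda2r, a receptor of the tumour necrosis factor family, was 37.4, 51.8 and 45.4 CPM and then 18.3, 21.5 and 20 CPM (-1.12, SE 0.20, adjusted p 0.00357). In both genes the 3 libraries of a time were close together and the times far apart, and the 6-week level was well above the DMSO level, which for Eda2r was 0.350, 0.866 and 1.08 CPM. Plk2, a stress-induced kinase gene, fell from 108, 138 and 108 CPM to 38.5, 47.6 and 59.5 CPM (-1.28, SE 0.24, adjusted p 0.00568). These 3 genes were called in every leave-one-out fit. Cdkn1a, the p21 inhibitor that halts the cell cycle, fell from 400, 453 and 404 CPM to 196, 207 and 283 CPM (-0.89, SE 0.22, adjusted p 0.0188) and stayed far above DMSO (7.79, 7.02 and 12.5 CPM). It was not called without replicate 1 (0.0527) or 3 (0.0523) of the 3-week group or replicate 1 of the 6-week group (0.0746). Cdkn1b, the p27 inhibitor of resting cells, rose slightly, from 43.9, 37.9 and 39.5 CPM to 51.8, 47.1 and 62.9 CPM (0.40, SE 0.10, adjusted p 0.0222), and was lost without replicate 2 (0.0575) or 3 (0.0691) of the 3-week group or replicate 3 of the 6-week group (0.0739). Over the fits without a library between 9 and 13 of the 24 p53 targets were called, fewest without replicate 3 of the 3-week or replicate 1 of the 6-week group, with medians from -0.51 to -0.57.

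Tubular injury genes remained high in all libraries. All 23 genes of the list were called above DMSO at both times, against 57.2% of all genes tested at 3 weeks and 53.7% at 6 weeks. From 3 to 6 weeks 6 of them fell and 2 rose, with a median of -0.34. Havcr1 (chr11:46735080-46779578), for the shed receptor KIM-1 of injured proximal tubule, was 582, 841 and 547 CPM at 3 weeks and 269, 351 and 116 CPM at 6 weeks (-1.53, SE 0.33, adjusted p 0.0105), against 1.45, 1.35 and 0.754 CPM with DMSO. S100a6, a calcium-binding protein gene, was 285, 323 and 258 CPM and then 94.4, 113 and 141 CPM (-1.32, SE 0.24, adjusted p 0.00539). Both were lower in every 6-week library, both remained many times above DMSO, and both were called in every leave-one-out fit. Lcn2, for the iron-scavenging lipocalin NGAL, overlapped between the times, with 341, 351 and 285 CPM against 182, 262 and 348 CPM (-0.35, 95% interval -1.05 to 0.35, adjusted p 0.526). Spp1, for the phosphoprotein osteopontin, fell from 14545, 19891 and 18691 CPM to 10643, 10078 and 8752 CPM (-0.84, SE 0.23, adjusted p 0.0301), without overlap. It was not called without replicate 2 (0.0712) or 3 (0.0877) of the 3-week group, or replicate 1 (0.0596) or 3 (0.0684) of the 6-week group. Of the injury genes 2 or 3 were called lower in each fit without a library other than replicate 2 of the 6-week group, and 0 or 1 higher in each of the 6 fits. In the list of genes of failed-repair tubule cells 3 of 15 fell and none rose (median -0.26), and 13 were called above DMSO at 6 weeks. The calls fell to between 0 and 2 when any library was left out. Akap12, a scaffold for protein kinase A, fell from 454, 523 and 517 CPM to 191, 277 and 345 CPM (-0.91, SE 0.20, adjusted p 0.0119; 0.0529 without replicate 1 of the 6-week group).

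Egfr, the receptor for epidermal growth factor, fell in the list of 10 epidermal growth factor ligands and receptors, of which 1 rose and 2 fell. It was 138, 152 and 156 CPM at 3 weeks and 71.9, 90.3 and 79.1 CPM at 6 weeks (-0.88, SE 0.11, adjusted p 0.000699). The 6-week libraries lay around or under the DMSO libraries, at 89.6, 88.6 and 108 CPM, so that receptor and ligand moved in opposite directions: Egf rose and Egfr fell. Hbegf, a membrane-bound ligand of the same receptor, fell from 57.8, 68.0 and 44.2 CPM to 30.1, 32.7 and 45.5 CPM (-0.64, SE 0.17, adjusted p 0.0299). Here the groups overlapped, and the call was lost in 4 of 6 leave-one-out fits (0.0711 to 0.117).

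Matrix genes fell, most of them from a level many times that with DMSO. Of 17 collagen genes 11 fell and none rose (median -1.14), of 20 genes for matrix glycoproteins and crosslinkers 8 fell and none rose (median -0.76), and of 19 matrix proteases and inhibitors 7 fell and none rose (median -0.70). Without replicates 1 or 3 of the 3-week group 5 and 4 collagens were called, and without replicate 3 of the 6-week group 5, with a median of -0.76. These 3 fits called 5, 3 and 5 of the glycoprotein and crosslinker genes and 4, 5 and 5 of the proteases. The basement membrane collagen genes Col4a1 and Col4a2, which lie head to head on chromosome 8, fell together. Col4a1 was 1120, 1236 and 1366 CPM at 3 weeks and 735, 764 and 456 CPM at 6 weeks (-0.96, SE 0.18, adjusted p 0.00581), and Col4a2 was 737, 738 and 910 CPM and then 484, 450 and 324 CPM (-0.94, SE 0.16, adjusted p 0.00283). In both the lowest 6-week library was replicate 3, and no 6-week library reached the 3-week range. The fibrillar collagen gene Col5a2 fell from 132, 107 and 127 CPM to 50.5, 69.4 and 42.4 CPM (-1.18, SE 0.22, adjusted p 0.00580). Col3a1, the fibrillar collagen of young scar, was 645, 530 and 586 CPM at 3 weeks and 259, 313 and 43.8 CPM at 6 weeks (-1.93, SE 0.58, adjusted p 0.0439). It shows how far replicate 3 of the 6-week group stood apart, within the DMSO range of 15.5 to 63.6 CPM, and it was not called without that library (0.135) or without any of the 3-week libraries (0.0653 to 0.131).

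Vcan, the large proteoglycan versican, had the smallest adjusted p of the matrix genes, at 13.8, 11.2 and 15.3 CPM and then 3.58, 4.63 and 3.07 CPM (-1.60, SE 0.18, adjusted p 0.000388). Thbs1, for thrombospondin-1, which activates latent TGF-beta, was 791, 847 and 747 CPM at 3 weeks and 234, 388 and 274 CPM at 6 weeks (-1.44, SE 0.21, adjusted p 0.00149). Mmp9, a gelatinase gene, was 23.3, 41.4 and 52.3 CPM and then 5.61, 12 and 2.20 CPM (-2.55, SE 0.42, adjusted p 0.00266). In all 3 genes the times were apart, and the 6-week libraries were above DMSO, whose values were 0.549, 0.625 and 0.970 CPM for Vcan, 49.1, 52.0 and 56.0 CPM for Thbs1 and 1.30, 1.11 and 1.62 CPM for Mmp9. Of 14 pericyte and myofibroblast genes 5 fell and none rose (median -0.81). Notch3, a receptor of mural cells, was 61.5, 56.8 and 85.4 CPM and then 33.5, 28.1 and 31.4 CPM (-1.09, SE 0.15, adjusted p 0.00135). Acta2, the smooth muscle actin of myofibroblasts, fell from 131, 129 and 178 CPM to 67.5, 85.9 and 38.8 CPM (-1.23, SE 0.24, adjusted p 0.00686), no longer called against the DMSO libraries of 41.5, 52.6 and 40.0 CPM. In the TGF-beta list 5 of 13 genes fell (median -0.58), among them the receptor gene Tgfbr2, from 420, 359 and 350 CPM to 243, 264 and 213 CPM (-0.65, SE 0.12, adjusted p 0.00587). Neither Acta2 nor Tgfbr2 overlapped between the times. In the TGF-beta list 1 gene was called without replicate 1 or 3 of the 3-week or replicate 1 of the 6-week group, and 2 without replicate 3 of the 6-week group.

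Transcript length moved with these calls. When genes were split into 5 equal groups by the longest annotated transcript, 3.73% of the group with the shortest transcripts fell and 7.10% rose, and in the group with the longest 16.8% fell and 0.466% rose. The median difference went from 0.03 to -0.18 over the 5 groups, and in fl/fl from -0.03 to 0.01. After each library was centred within bins of length, 4 of 17 collagens, 7 of 20 glycoprotein and crosslinker genes and 25 of 26 mitosis genes were called lower, against 11, 8 and 25 without centring. The collagen median was -1.02 after centring and -1.14 before, so fewer collagens were called at a difference of about the same size. Among lists that rose, 4 of 29 oxidative phosphorylation genes were called after centring against 9 before, at medians of 0.25 and 0.27, 4 of 28 branched-chain amino acid genes against 7, and 2 of 14 tricarboxylic acid cycle genes against 4.

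Most macrophage, T and NK cell and antigen presentation genes were above DMSO at both times, and few were called between them. The neutrophil list was not among these, with 2 of 7 genes called above DMSO at each time and none called between them, nor was the B and plasma cell list, with 5 and then 3 of 11 above DMSO and 1 that fell. Over all genes tested 57.2% were called above DMSO at 3 weeks and 53.7% at 6 weeks, more than in these 2 lists. All 23 macrophage genes were called above DMSO at 3 weeks and 22 at 6 weeks. From 3 to 6 weeks 3 fell and none rose, with a median of -0.36. Mrc1, the mannose receptor of tissue macrophages, was 139, 90.8 and 140 CPM at 3 weeks and 66.7, 63.5 and 40.1 CPM at 6 weeks (-1.11, SE 0.19, adjusted p 0.00317), with DMSO at 4.05, 3.66 and 3.66 CPM. From the cytokine list, Csf1, the growth factor of macrophages, fell from 282, 244 and 211 CPM to 96.1, 140 and 102 CPM (-1.13, SE 0.24, adjusted p 0.00892). Both genes were apart between the times and held their call in every leave-one-out fit. None of 26 T and NK cell genes (median -0.74) and none of 10 class II antigen presentation genes (median -0.57) was called. Without replicate 2 of the 3-week group, and again without replicate 2 of the 6-week group, 5 T and NK cell genes were lower (medians -1.08 and -0.99) and 1 class II gene. Of 10 class I antigen presentation genes 2 fell and none rose (median -0.77), against 8.26% of all genes tested that fell. Without replicates 1, 2 or 3 of the 3-week group 0, 5 and 1 class I genes were called lower. Without those of the 6-week group 0, 3 and 0 were. Cd74, the class II invariant chain, overlapped widely, with 6163, 2534 and 2816 CPM against 3259, 3682 and 1316 CPM (-0.49, 95% interval -1.34 to 0.35, adjusted p 0.449). Cd3e, a chain of the T cell receptor complex, was 19.9, 5.77 and 9.84 CPM and then 6.59, 9.15 and 2.35 CPM (-0.86, adjusted p 0.179), again with overlap and with replicate 1 the highest at 3 weeks. Of 17 complement genes 4 fell and none rose (median -0.54), and of 27 chemokine and cytokine genes 6 fell and none rose (median -0.34). Without replicate 1 of the 3-week group 1 macrophage, 0 complement and 1 cytokine gene were called lower, and the macrophage median was -0.05. Without replicate 3 of the 6-week group 1, 1 and 2 were, with a macrophage median of -0.08, and without replicate 3 of the 3-week group 1, 2 and 3. Without replicate 1 of the 6-week group the cytokine calls were 4, and without it or replicate 2 the macrophage calls were 2.

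Of 23 interferon-stimulated genes 9 fell and none rose, with a median of -0.82. Ifit2, an antiviral protein gene of this response, was 129, 78.1 and 53.2 CPM at 3 weeks and 30.3, 35.1 and 35.5 CPM at 6 weeks (-1.25, SE 0.24, adjusted p 0.00649), and was the member called in every leave-one-out fit. Its 6-week libraries were close together, all under the 3-week libraries and above DMSO at 9.19, 9.86 and 8.84 CPM. Other genes of this response depended on replicate 1 of the 3-week group, also outside the list. Iigp1, an immunity-related GTPase gene outside it, was 560 CPM in that library and 133 and 111 CPM in its fellows, and 72.2, 87.5 and 21.1 CPM at 6 weeks (-1.96, SE 0.58, adjusted p 0.0413). Without replicate 1 of the 3-week group its adjusted p was 0.192, and without replicates 1 or 3 of the 6-week group 0.0640 and 0.141. Gbp6, also outside the list, a guanylate-binding protein gene with close paralogs, was 119, 42.8 and 32.7 CPM and then 14.5, 26.3 and 5.68 CPM (-1.99, SE 0.49, adjusted p 0.0183; 0.0925 without replicate 1 of the 3-week group and 0.0627 without replicate 3 of the 6-week group). The same 3-week library was the highest for T and NK cell genes, with a summed level of 472.9 CPM for the list against 158.3 and 236.9 CPM in its fellows and 72.5 to 234.2 CPM at 6 weeks. The macrophage list had 5283 CPM there against 2468 and 2913 CPM, and 1644 to 3568 CPM at 6 weeks, while the B cell gene Ms4a1 was at most 0.441 CPM in the 6 libraries. Without it 1 of the 23 interferon-stimulated genes was called, with a median of -0.49, and without replicates 1 or 3 of the 6-week group 4 and 2 were. The part of these cells in the result was not tested.

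Promoters of interferon-stimulated genes are given for the element that defines the response. Windows are as above, and capitals mark GAAANNGAAA on either strand, the letters of the interferon response element. Isg15 (a ubiquitin-like modifier) and Gbp3 (a guanylate-binding protein) were added for their sequences after their values had been seen.
Isg15, chr4:156200819-156200938, minus strand: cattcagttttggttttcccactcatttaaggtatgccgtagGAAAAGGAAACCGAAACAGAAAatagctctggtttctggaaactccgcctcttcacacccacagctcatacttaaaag
Gbp3, chr3:142559924-142560043, plus strand: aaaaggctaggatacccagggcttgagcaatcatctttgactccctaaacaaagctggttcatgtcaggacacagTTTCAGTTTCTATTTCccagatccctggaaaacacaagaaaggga
The element was found in the 250 bases before the start of 9 of 17 interferon-stimulated genes with a promoter in the table (52.9%) and in 2.70% of the 10960 tested genes with one, and in 1 of the 21 mitosis genes. Overlapping matches run into each other in both windows. Isg15 was 21, 10.7 and 9.72 CPM at 3 weeks and 6.75, 8.42 and 3.48 CPM at 6 weeks (-1.03, SE 0.30, adjusted p 0.0413; 0.193 without replicate 1 of the 3-week group). Gbp3 was 162, 61.2 and 52.7 CPM and then 41.6, 49.0 and 18.2 CPM (-1.25, SE 0.38, adjusted p 0.0457; 0.212 without that library). Both were highest in replicate 1 of the 3-week group and did not overlap between the times.

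**Figure D4:**
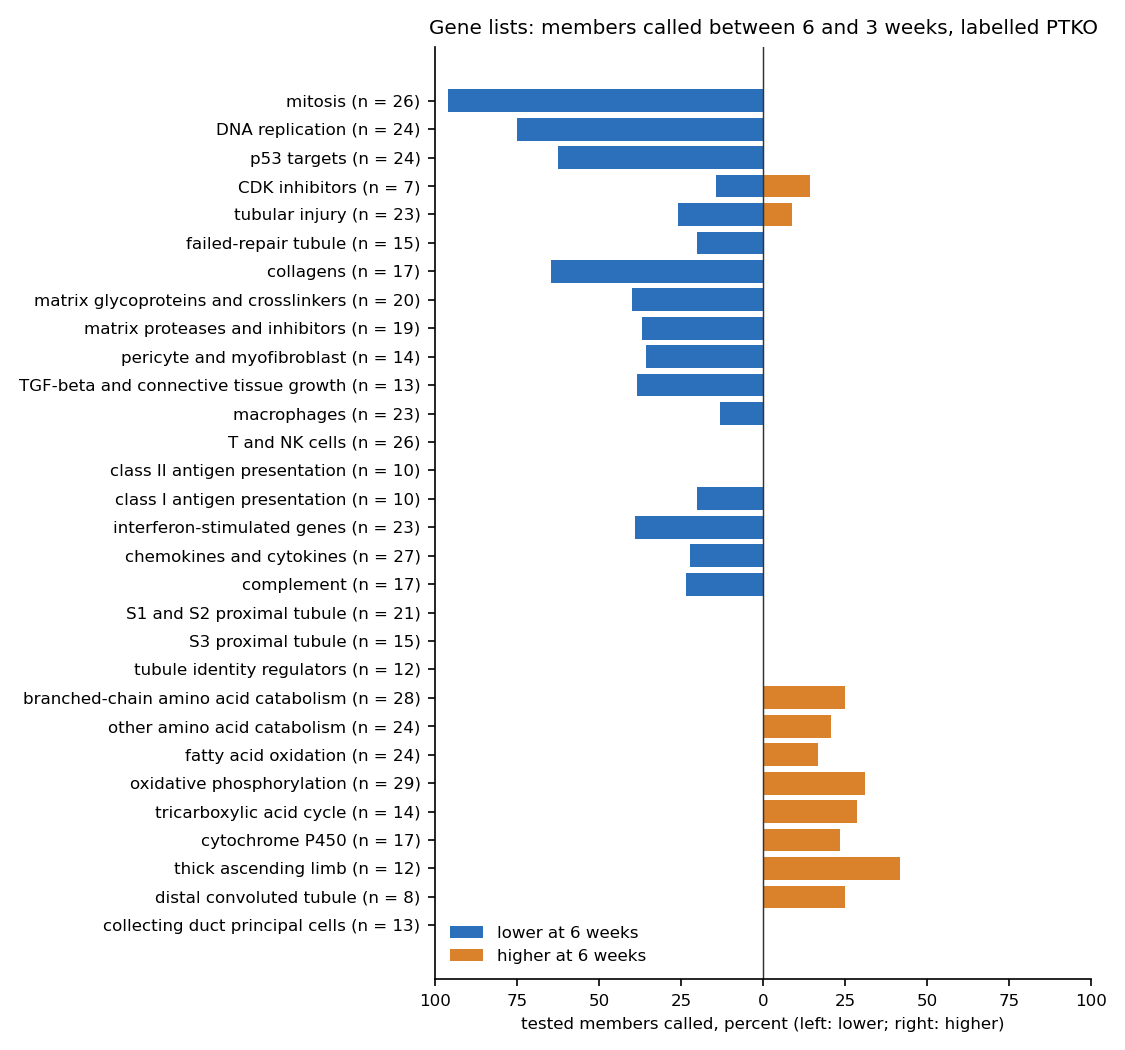
Percent of the tested members of each gene list called lower (blue, to the left) or higher (orange, to the right) at 6 than at 3 weeks in kidneys labelled PTKO; n is the number of members tested. Over all genes tested 2.92% were higher and 8.26% lower, and the mitosis list, with 25 of 26 members lower, reaches farthest.

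Outside these lists, Cntn2, Serpina6, Flnc and Crct1 fell from a level that AAI had raised from near 0 or about 1 CPM with DMSO. Cntn2 (chr1:132509427-132543256), which encodes a contactin known from neural adhesion, was 21.8, 35.6 and 24 CPM at 3 weeks and 1.97, 3.79 and 0.716 CPM at 6 weeks (-3.25, SE 0.38, adjusted p 0.000667). Its DMSO values were 0.25, 0.289 and 0.162 CPM. Serpina6, for the corticosteroid carrier of plasma, was at 0 in all DMSO libraries, which allows up to 0.144 to 0.162 CPM each (3 reads), 73.9, 65.2 and 37.0 CPM at 3 weeks and 10.7, 5.63 and 14.1 CPM at 6 weeks (-2.44, SE 0.32, adjusted p 0.000881). Flnc, an actin crosslinker best known from muscle, was 112, 139 and 165 CPM and then 26.9, 36.9 and 35.5 CPM (-2.03, SE 0.25, adjusted p 0.000699). In these genes no library of one time came near those of the other, and all 6-week libraries remained above DMSO. Peg3, a paternally expressed zinc finger gene, fell from 55.3, 76.2 and 79.1 CPM to 8.57, 17.3 and 20.5 CPM (-2.18, SE 0.29, adjusted p 0.000898), level with the DMSO values of 8.59, 8.80 and 16.3 CPM. Crct1, a gene of the epidermal differentiation cluster, fell from 4.95, 5.70 and 5.87 CPM to 0.519, 0.473 and 0.460 CPM (-2.13, SE 0.30, adjusted p 0.00136). Peg3 and Crct1 are among the 277 receded genes no longer called above DMSO, and the 5 genes named here were called in every leave-one-out fit.

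Genes that fell below the DMSO level included some whose DMSO libraries were divided. Ugt2b38, a glucuronosyltransferase gene with near-identical neighbours on chromosome 5, was 116, 235 and 212 CPM at 3 weeks and 0.208, 0.0526 and 0.0511 CPM at 6 weeks (-7.36, SE 1.45, adjusted p 0.00659). With DMSO it was 452 and 431 CPM in replicates 1 and 2 and 0.269 CPM in replicate 3. Rps2, a ribosomal protein gene with processed copies, was 75.6, 83.6 and 71.7 CPM and then 22.9, 21.1 and 24.2 CPM (-1.71, SE 0.24, adjusted p 0.00135), with DMSO at 62.0, 63.0 and 26.1 CPM. Vwa1, a matrix protein gene, was 17.9, 22.5 and 17.3 CPM and then 8.83, 8.21 and 6.70 CPM (-1.18, SE 0.33, adjusted p 0.0322; 0.0525 to 0.0813 when any library was left out), with DMSO at 40.1, 39.7 and 12.8 CPM. In these 3 genes, replicate 3 of the DMSO group sat apart from its fellows and towards the 6-week libraries, and every 3-week library was above it and above the 6-week libraries. In fl/fl, limma called none of these 3 genes between the AAI times, with differences of -0.23 for Ugt2b38, -0.28 for Rps2 and 0.39 for Vwa1. The labels give 1 strain for all groups, and whether the 3-week and 6-week mice labelled PTKO differ in genetic background was not tested; such a difference cannot be told apart from the change between the times in any gene. Utp20, a ribosome assembly gene, had DMSO libraries that agreed (78.8, 71.3 and 62.1 CPM), was lowered at 3 weeks (48.4, 51.6 and 58.3 CPM) and fell further (34.8, 37.4 and 35.8 CPM; -0.54, SE 0.10, adjusted p 0.00568). It lies among long transcripts and was not called after centring by length (-0.28, adjusted p 0.106).

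The same interval in fl/fl kidneys gave 1046 genes higher (7.16%) and 886 lower (6.07%). Of the 270 regained genes in kidneys labelled PTKO 148 were also called in fl/fl, of the 94 newly higher 43 and of the 55 newly lower 5. Of the 845 receded genes still above DMSO 370 were called in fl/fl, and of the 277 other receded genes 62. These fl/fl calls count either direction, and 13.2% of all genes tested were called there. The difference between the genotypes' changes was tested directly as an interaction. limma called 0 genes (0%), 1387 had an unadjusted p under 0.05 (9.5%), edgeR on recovered reads called 0 and DESeq2 called 61. Medians of the lists lay on the same side of 0 in both genotypes for mitosis (-1.39 and -1.04), collagens (-1.14 and -0.94) and the thick ascending limb (0.88 and 0.99). The widest gap was for S3, with a median of 0.80 and 0 of 15 genes called in kidneys labelled PTKO against 3.01 and 14 of 15 in fl/fl, although no S3 gene passed the interaction test. Kap, the androgen-regulated S3 transcript, was 979, 2852 and 787 CPM at 3 weeks and 9359, 6917 and 683 CPM at 6 weeks in kidneys labelled PTKO (1.44, 95% interval -0.35 to 3.24, adjusted p 0.280), and 68.5, 436 and 180 CPM and then 4353, 13121 and 3057 CPM in fl/fl (4.99). In fl/fl the times were far apart, while in kidneys labelled PTKO replicate 3 at 6 weeks lay under every 3-week library. Failed-repair genes had a median of -0.26 against 0.07 in fl/fl.

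**Figure D5:**
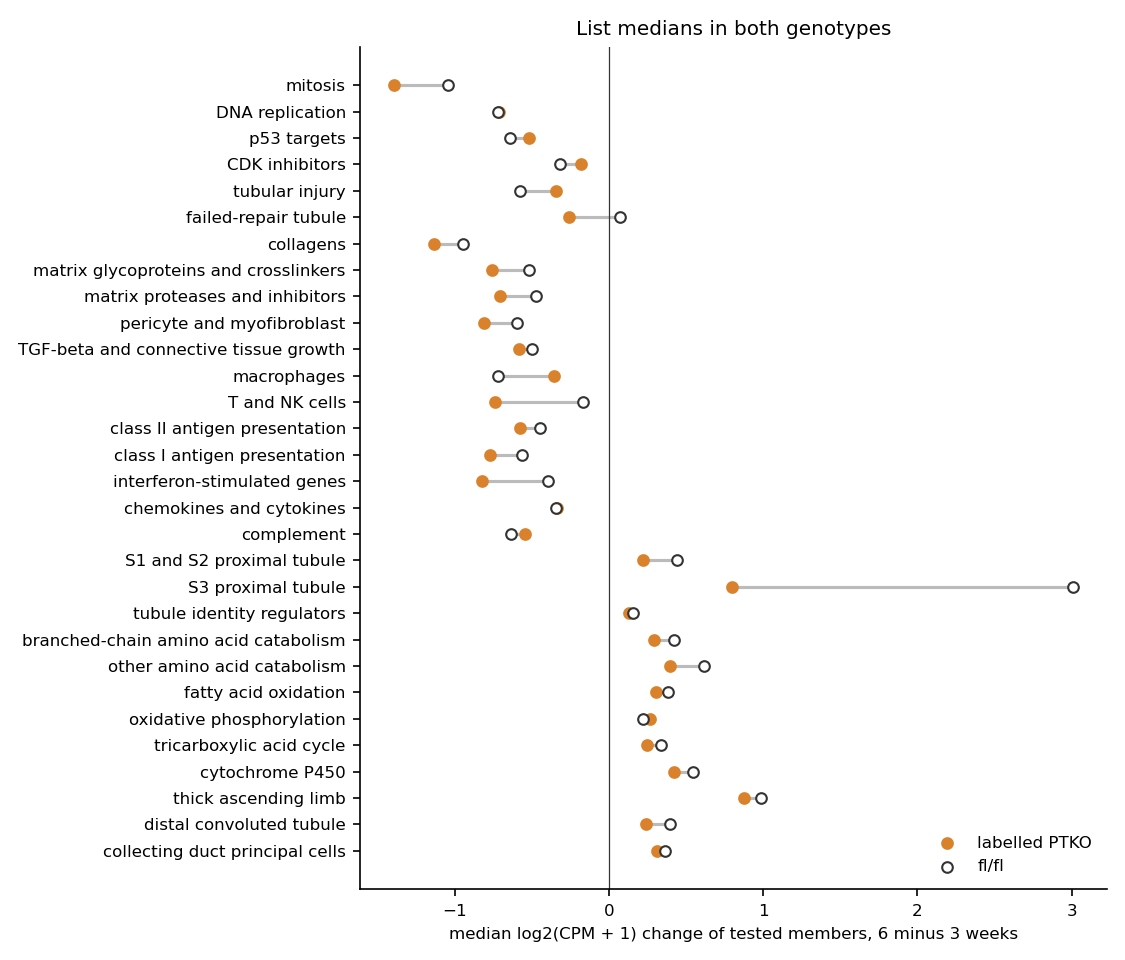
Median difference in log2(CPM + 1) between 6 and 3 weeks over the tested members of each gene list, in kidneys labelled PTKO (filled orange) and in fl/fl (open circles), joined by a line. The S3 proximal tubule list has the widest gap, 0.80 against 3.01, and the mitosis, DNA replication, collagen, macrophage, T and NK cell and interferon-stimulated lists are below 0 in both genotypes.

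The size of the return was also measured on genes chosen in fl/fl libraries. Those libraries do not enter the differences within kidneys labelled PTKO, but they share in the estimate of spread behind the calls. The 500 genes with the largest increase after AAI in fl/fl had a median distance from DMSO of 3.23 at 3 weeks and 2.48 at 6 weeks in kidneys labelled PTKO, 135 of them fell and 1 rose, and 78.3% of their mean change at 3 weeks was left. Their mean log2(CPM + 1) was 5.63, 4.92 and 5.13 at 3 weeks and 4.62, 4.84 and 4.03 at 6 weeks, with DMSO between 1.81 and 1.94. All 6-week libraries were lower than all 3-week libraries and closer to them than to DMSO. The 500 genes with the largest decrease in fl/fl went from a median of -1.52 to -1.10, 76 of them rose and 1 fell, and 70.7% of the change was left. Their mean log2(CPM + 1) was 5.07, 5.54 and 5.28 at 3 weeks and 6.02, 5.87 and 5.47 at 6 weeks, with replicate 3 at 6 weeks within the 3-week range and DMSO between 6.80 and 7.09.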

How the data were processed

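Bulk RNA-seq libraries of kidney cortex were made with TruSeq Stranded Total RNA, per the labels' protocols. The values were deposited by the authors as CPM per gene and library, that is, reads of a gene scaled by the reads of its library. The submitters' processing notes name bcl2fastq 2.19, kallisto and mm10, with no role or version for the others, and the gene annotation is not given in the sources used here. Every one of the 433116 values was a whole number of reads within 0.01 when multiplied by the recovered depth (100%), so depth is known, at 11722625 to 27213219 reads over the 18 libraries.

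The main test was limma 3.58.1 (R 4.3.3) on log2(CPM + 1), with 1 mean for each of the 6 groups, a variance trend, 12 residual degrees of freedom and Benjamini-Hochberg adjustment over all 14604 genes that reached 1 CPM in 3 libraries. A difference on this scale understates the change of low genes. Classes combine the calls of 3 contrasts within the genotype labelled PTKO. Alternatives were edgeR 4.0.16 and DESeq2 1.42.0 on recovered reads, other pseudocounts, filters and scalings, group weights, no variance trend, fewer libraries in the fit, a replicate block, a fold minimum, and leaving out each library. Centring each library within 20 bins of transcript length was chosen after seeing the data. Lengths and positions come from the GENCODE annotation of GRCm38 and cover 13945 of the tested genes (95.5%). The fit was tested on simulated data before use.

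The comparison, the gene lists and their members were chosen with earlier results of these data known. Genes are named by a fixed rule: 4 set examples, then called genes of at least 5 CPM without overlap that have the largest differences overall and in each class, then list members with the smallest adjusted p. Plk2, Cd3e, Slc7a13, Slc22a7, Slc12a1 and Slc14a2, as well as the 4 genes added for their promoters, lie outside it and were chosen after their values were seen. The table holds 27 gene names that had turned into dates, which are not named.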

Additional observations from a re-analysis of the deposited data

How the results depend on the processing

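The counts of genes depended on single libraries. Leaving out each library in turn gave 130 to 438 higher and 403 to 1197 lower genes, with the fewest higher without replicate 3 and the fewest lower without replicate 1 of the 3-week group. Over the same fits regained genes numbered 73 to 305, receded 372 to 1133, higher still 9 to 49, newly higher 26 to 132, lower still 2 to 14, newly lower 19 to 57, and genes with a different change in fl/fl 0 to 3. With only the 6 libraries of the comparison, 81 genes were higher and 286 lower. Over the 9 libraries labelled PTKO there were 16 higher still, 47 newly higher, 685 receded, 6 lower still and 27 newly lower genes, and 3 genes differed between the genotypes among the AAI libraries alone.

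DESeq2 gave 932 higher genes, 702 regained, 53 lower still, 144 newly lower and 61 differing between the genotypes. edgeR gave 697 lower genes, 437 regained, 593 receded and 17 lower still. Quantile normalization gave 727 higher, 570 regained, 23 higher still, 707 receded, 18 lower still and 90 newly lower genes. Median-of-ratios scaling gave 432 regained, 24 higher still, 709 receded and 23 lower still. Group weights gave 281 higher, 16 higher still, 55 newly higher and 30 newly lower genes. Centring within length bins gave 706 lower, 18 higher still and 630 receded genes. Without a filter there were 20 higher still genes and 5 that differed between the genotypes, and a pseudocount of 0.1 gave 21 higher still. A minimum difference of 1 on the log2 scale gave 60 higher, 269 lower, 39 regained, 5 higher still, 14 newly higher, 263 receded, 0 lower still and 5 newly lower genes. The causes of these shifts were not tested.

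Of the genes called by limma, DESeq2 also called 423 of the 426 higher and 1109 of the 1207 lower, and edgeR 392 and 692. Of the 181 genes given by the naming rule, 174 kept direction and call with DESeq2, 152 with edgeR, 136 with length centred, 77 with only the 6 libraries, 102 without replicate 1 of the 3-week group and 114 without replicate 3 of the 6-week group. The sign turned in 7 uncalled genes. Over the fits without a library Klf6 ranged from -0.17 to 0.18 (-0.08 without replicate 3 of the 3-week group), Atp6v1b1 from -0.021 to 0.52, Star from -0.048 to 0.15 (-0.03 without replicate 3 of the 3-week group), Car3 from -0.067 to 2.34, Enpep from -0.22 to 0.055 and Csf3r from -0.15 to 0.40, and after quantile normalization Mylpf was 0.023.

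The replicate numbers do not pair the libraries: deviations of same-numbered libraries of the 2 times correlated at 0.04, -0.17 and 0.07, and not every library correlated best with its own number. With the replicate number as a block, 413 genes were higher and 1060 lower, and 0 differed between the genotypes. A gene at 0 reads in a library labelled PTKO may still be present at up to 0.110 to 0.162 CPM, a limit that covers counting error only.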

Other observations

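In several further lists few or no genes were called between the times. None of 15 glycolysis genes was called (median 0.02). Of the 15, 9 were called above DMSO at 6 weeks and 8 at 3 weeks, near the shares over all genes tested, 53.7% and 57.2%. Of 16 immediate early genes, which encode transcription factors switched on within minutes of a stimulus, 15 were above DMSO at 6 weeks and 1 fell: Fosl1, a partner of Jun, from 2.22, 3.86 and 2.59 CPM to 0.364, 0.842 and 1.18 CPM (-1.12, SE 0.19, limma adjusted p 0.00309). Its groups did not overlap, and it was near 0 with DMSO. Of 15 Krüppel-like factor genes 2 fell and none rose, with a median of 0.04, and the fits without a library called 0 or 1. Of 14 podocyte genes and 19 endothelial genes 1 of each fell, with medians of -0.11 and -0.25. Cytosolic ribosomal proteins had 2 of 23 genes lower and a median of -0.08, and among the lower genes was Rps2, whose DMSO libraries were divided as described above. Over all genes tested 8.26% were called lower, and the podocyte, endothelial and ribosomal lists were near or under that share.

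Genes of tissues next to the cortex were measured in single libraries. The 7 urothelium genes had a summed level of 69.5 CPM in replicate 2 of the 6-week group against 9.61 and 8.13 CPM in its fellows. At 3 weeks it was 3.45 to 5.82 CPM, and 1 of the 6 genes tested was called higher. The summed level of 12 adipocyte genes was 809 CPM in the same library and 60.1 and 91.9 CPM in its fellows. Of these genes 5 were tested, and none was called.

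Camk2b, a calcium-dependent kinase gene, had the same division of DMSO libraries as Ugt2b38 and was found after that gene's values had been seen. It was 3.25 and 2.74 CPM in DMSO replicates 1 and 2 and 0 in replicate 3, 8.23, 3.75 and 6.04 CPM at 3 weeks, and 0.675, 0.842 and 0.818 CPM at 6 weeks (-1.93, SE 0.39, adjusted p 0.00750). In fl/fl its difference between the times was 0.06.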
